A study of Arabidopsis thaliana with 9 samples.

Results

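The chromatin remodelling ATPase genes of the CHR series were followed in T87 suspension cells of Arabidopsis thaliana. A gene was taken as a member when the annotation of the array gave it the symbol CHR and a number and at least 1 probe set of that gene alone. This gave 8 members, CHR17, CHR18, CHR23, CHR24, CHR34, CHR40, CHR42 and chr31, which the annotation spells in lower case, of 13356 genes measured in this way. The values are intensities from Affymetrix ATH1 arrays, in arbitrary units, where a probe set is a group of short probes that together read 1 transcript. Only chr31 had more than 1 such probe set, and its brighter one was used. RefSeq's gene table gives a CHR number as symbol or other name to 29 genes, of which 10 were measured alone by a named probe set. The other 19, among them BRM, SYD, PKL and CHR11, were not analysed here.

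Snf2 family ATPases use the energy of ATP hydrolysis to move along DNA, and many of them slide, evict or exchange nucleosomes, the units of DNA wrapped around histones. In plants the family includes the SWI/SNF and ISWI remodellers, which set nucleosome position at genes, and a plant branch, the DRD1 and CLASSY proteins, which serves RNA-directed DNA methylation, the pathway in which small RNAs guide methyl groups to transposons and repeats. CLASSY proteins bring RNA polymerase IV to its target loci. Other members of the family act in DNA repair and recombination. The arrays measured transcript levels only, not the proteins or the chromatin.

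All samples were wild-type T87 cells, a single line of undifferentiated cells grown in liquid culture in the light and taken 4 days after dilution. Intact cells received no treatment. Osmotic cells spent 3 h in medium with 0.4 M mannitol, a sugar alcohol that draws water from the cell. Protoplasts were cells whose wall had been digested for 1.5 h with cellulase and pectolyase in 0.35 M mannitol, that were then washed in mannitol and held for 3 h in medium with 0.4 M mannitol. Each group had 3 arrays, described as independent biological replicates, and this number limits the precision of every value below. No mock transfer to fresh medium is recorded for intact cells, so mannitol, handling and time cannot be told apart in either comparison with them. Wall digestion, its 1.5 h in 0.35 M mannitol and the washes likewise cannot be told apart in protoplasts against osmotic cells.

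Median intensities per array lay between 144.6 and 162.4 in intact and osmotic arrays and between 115.4 and 130.5 in protoplasts. The third arrays stood apart: limma's array weights were 0.300 to 0.640 for the third array of each group and 1.15 to 2.22 for the others. The proliferation markers AUR1, AUR2, HTR12 and PRL, all measured, summed to between 5082 and 5329 in intact cells, 2555 and 3222 in osmotic cells and 1492 and 1715 in protoplasts, and none was at 0. The 4 photosynthesis genes taken as leaf mesophyll markers summed to between 3520 and 4938 in intact, 5130 and 5440 in osmotic and 1395 and 2108 in protoplast arrays. Root hair and guard cell markers were dim. Over all arrays, sums were 16.4 to 67.6 for 2 root hair genes and 8.25 to 44.8 for 3 guard cell genes. GUT2, the measured gene for secondary wall and xylem, was brighter. It read 104 to 114 in intact, 89.6 to 98.5 in osmotic and 94.3 to 110 in protoplast arrays. None of these root hair, guard cell and xylem genes was called in any of the 3 comparisons. The ratio of 3-prime to 5-prime actin control probe sets, a measure of RNA integrity and labelling, was 13.6 to 14.8 in intact cells, 7.40 to 8.80 in osmotic cells and 10.2 to 12.0 in protoplasts. That of GAPDH was 1.14 to 1.40, 1.21 to 1.32 and 1.31 to 1.70. For ubiquitin it was 1.86 to 2.72, 2.32 to 2.45 and 1.80 to 2.17 in the same order. The part of any of these shifts in the results below was not tested.

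CHR17 fell at each step from intact to osmotic cells to protoplasts. The gene (AT5G18620) encodes an ISWI ATPase that acts together with its close relative CHR11 in spacing nucleosomes along genes. Its intensity was 2647, 2860 and 3219 in the intact arrays, 1742, 1669 and 1469 in the osmotic arrays and 981, 1131 and 1071 in the protoplast arrays. The 3 groups did not overlap in any pair. On the log2(intensity + 16) scale, used for all changes below because it damps the noise of dim genes, CHR17 fell by 0.83 ± 0.16 in osmotic against intact cells (SE, limma adjusted p = 0.0174). Protoplasts differed from intact cells by -1.44 ± 0.16 (limma adjusted p = 8.0e-05), which left a mean intensity of 1061 ± 75.7 against 2909 ± 289 (SD, n = 3). The step from osmotic cells to protoplasts was -0.61 ± 0.16 (limma adjusted p = 0.0138). In bulk RNA, less transcript per cell and fewer cells that carry it cannot be told apart.

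The fall of CHR17 in protoplasts against intact cells passed in all 21 alternatives, with a log2 change between -1.67 and -1.12. Without intact replicate 2, intact replicate 3 or osmotic replicate 2 the step into mannitol was -0.84, -0.76 and -0.85, about as large as with all arrays, while its SE grew to between 0.18 and 0.20 and it missed the threshold (limma adjusted p = 0.0596, 0.0621 and 0.0612). It also missed the threshold after centring on the hybridisation controls (limma adjusted p = 0.0599). The step from osmotic cells to protoplasts was -0.56 without osmotic replicate 1 (limma adjusted p = 0.0514), and with each array centred on its median it was -0.31 (limma adjusted p = 0.157).

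**Figure D1:**
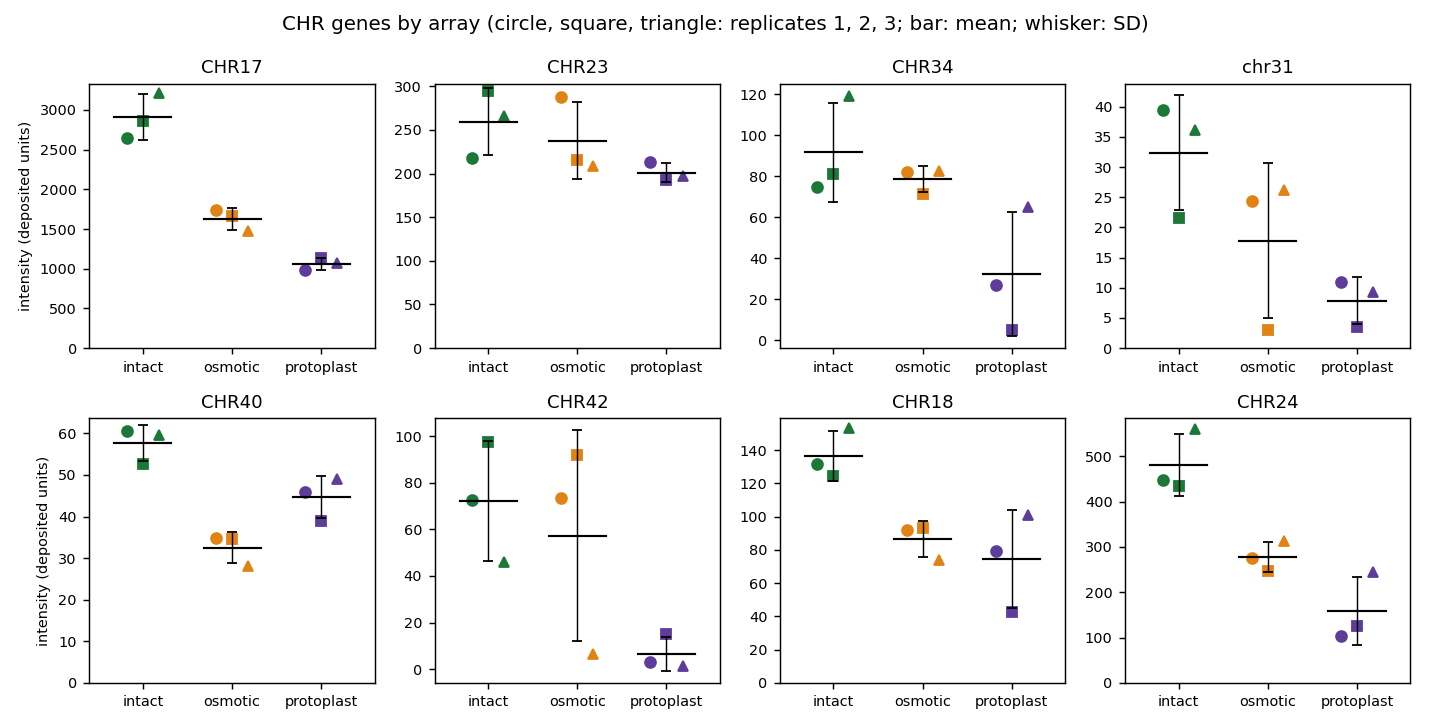
Intensity of the 8 CHR genes (vertical axis, deposited units, from 0, or from just below it where a whisker ends there) in each array of intact cells, osmotic cells and protoplasts, 1 panel per gene. Points are arrays, with circles, squares and triangles for replicates 1, 2 and 3, bars are group means and whiskers SD (n = 3). CHR17 falls in 2 steps, CHR40 is lowest in osmotic cells, and every protoplast value lies below every intact value in all 8 panels, as in 33.0% of all genes.

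CHR23 was the member of the SWI/SNF class, and it was not called in any comparison. The gene (AT5G19310), also known as MINU2, encodes an ATPase that works redundantly with CHR12 in embryo and meristem development. Its intensity was 218, 294 and 266 in intact cells, 288, 216 and 209 in osmotic cells and 213, 193 and 197 in protoplasts. The osmotic values overlapped both other groups, while the highest protoplast value lay just under the lowest intact value. Protoplasts differed from intact cells by -0.34 ± 0.19 (SE, limma adjusted p = 0.183), with a 95% interval from -0.75 to 0.08. Osmotic cells differed from intact cells by -0.12 ± 0.19 (limma adjusted p = 0.777), and protoplasts from osmotic cells by -0.21 ± 0.19 (limma adjusted p = 0.424). The last value turned to 0.089 after quantile normalization and to 0.088 after median centring.

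The DRD1 and CLASSY branch had 4 members, CHR34, chr31, CHR40 and CHR42, and they did not share 1 course. CHR40 (AT3G24340), known as CLSY4, had its lowest values in osmotic cells. Its intensity was 60.5, 52.7 and 59.6 in intact cells, 34.8, 34.6 and 28.2 in osmotic cells and 46.0, 39.0 and 49.0 in protoplasts. The groups did not overlap, and the protoplast arrays lay between the others. CHR40 fell by 0.60 ± 0.16 in osmotic against intact cells, at the edge of the threshold (SE, limma adjusted p = 0.0499). Protoplasts differed from intact cells by -0.28 ± 0.16 (limma adjusted p = 0.186) and from osmotic cells by 0.32 ± 0.16 (limma adjusted p = 0.142), and neither passed.

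All these CHR40 values were dim, below the median of every array, and the call in mannitol passed in 5 of 20 alternatives. With the replicate number as a block it had limma adjusted p = 0.0633. The change was -0.81 at a pseudocount of 1 (limma adjusted p = 0.0521) and -0.33 at 64. It had limma adjusted p = 0.148, 0.103 and 0.131 without intact replicate 1, 2 or 3, limma adjusted p = 0.106, 0.121 and 0.106 without osmotic replicate 1, 2 or 3, and limma adjusted p = 0.0702 and 0.0656 without protoplast replicate 1 or 2, which enter through the shared estimate of spread. Without protoplast replicate 3 it remained called (limma adjusted p = 0.0369). After median centring CHR40 rose from osmotic cells to protoplasts by 0.62 (limma adjusted p = 0.0106), and its difference between protoplasts and intact cells turned to 0.038.

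CHR42 (AT5G20420), known as CLSY2, fell in protoplasts to values near 0. Its intensity was 72.6, 97.5 and 46.1 in intact cells, 73.6, 92.0 and 6.35 in osmotic cells and 3.26, 15.0 and 1.63 in protoplasts. The first and second osmotic arrays lay within the intact range, and the third lay within the protoplast range. The change from intact cells to protoplasts was -1.96 ± 0.54 (SE, limma adjusted p = 0.014), with -3.63 at a pseudocount of 1 and -0.93 at a pseudocount of 64 in place of 16. The call ended without intact replicate 2 (limma adjusted p = 0.0531). Osmotic cells did not pass against intact cells, with -0.51 ± 0.54 (limma adjusted p = 0.655), and this turned to 0.20 without osmotic replicate 3. Between protoplasts and osmotic cells the change was -1.45 ± 0.54, which missed the threshold (limma adjusted p = 0.0596). That difference was called with the replicate block (limma adjusted p = 0.0123), and was -2.17 without osmotic replicate 3 (limma adjusted p = 0.00136).

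CHR34 (AT2G21450), a member of the same branch whose own function is little known, fell in protoplasts and not measurably in mannitol. Its intensity was 75.0, 80.9 and 119 in intact cells, 82.1, 71.3 and 82.6 in osmotic cells and 26.7, 5.18 and 65.0 in protoplasts. All protoplast values lay below all others, but they spread widely. Osmotic cells differed from intact cells by -0.17 ± 0.41 (SE, limma adjusted p = 0.878), a value of 0.01 without intact replicate 3. Protoplasts differed from intact cells by -1.34 ± 0.41 (limma adjusted p = 0.0227) and from osmotic cells by -1.18 ± 0.41 (limma adjusted p = 0.0461). These sizes moved with the pseudocount: at 1 they were -2.02 and -1.82 and neither was called (limma adjusted p = 0.0591 and 0.0926), and at 64 they were -0.73 and -0.61. The call against intact cells ended without intact replicate 3 (limma adjusted p = 0.0787), without protoplast replicate 1 (limma adjusted p = 0.0557) and without protoplast replicate 2, where the change was -0.85 (limma adjusted p = 0.0533). The call against osmotic cells ended without any 1 array other than protoplast replicate 3, with limma adjusted p = 0.0623, 0.0655 and 0.0545 without intact replicate 1, 2 or 3, limma adjusted p = 0.104, 0.0854 and 0.102 without osmotic replicate 1, 2 or 3, and limma adjusted p = 0.0998 and 0.123 without protoplast replicate 1 or 2. The change was -0.68 without protoplast replicate 2.

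The fourth gene of the branch, chr31 (AT1G05490), known as CLSY3, was dim in every array, and its probe sets disagreed. The brighter probe set read 39.4, 21.6 and 36.2 in intact cells, 24.4, 2.96 and 26.2 in osmotic cells and 10.9, 3.42 and 9.33 in protoplasts. Its protoplast values lay below its intact values, with a difference of -1.01 ± 0.32 (SE, limma adjusted p = 0.0258). The dimmer probe set read 1.92, 4.18 and 12.2 in intact cells, 20.8, 2.99 and 1.07 in osmotic cells and 3.04, 17.0 and 41.1 in protoplasts, with overlap between all groups. With the mean of both probe sets the difference of protoplasts from intact cells was -0.26 (limma adjusted p = 0.553). At a pseudocount of 1 the brighter probe set gave -1.99 and was not called (limma adjusted p = 0.0672), and at 64 it gave -0.42. The call of the brighter probe set ended without intact replicate 1 (limma adjusted p = 0.0864), intact replicate 3 (limma adjusted p = 0.0745) or protoplast replicate 2 (limma adjusted p = 0.091). Osmotic cells did not pass against intact cells, with -0.58 ± 0.32 (limma adjusted p = 0.327), nor protoplasts against osmotic cells, with -0.43 ± 0.32 (limma adjusted p = 0.34). Without osmotic replicate 2 the latter was -0.80 (limma adjusted p = 0.034).

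**Figure D2:**
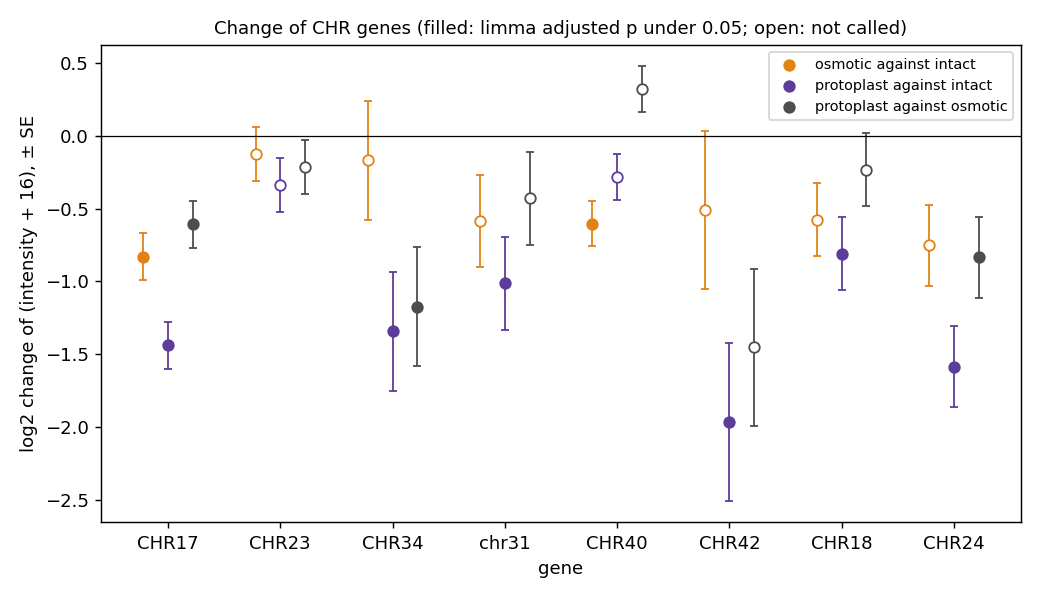
Change of each CHR gene (horizontal axis) in the 3 comparisons, as log2 change of intensity + 16 with SE from limma (vertical axis, 3 arrays per group). Filled points passed at an adjusted p under 0.05 over 13356 genes and open points did not. CHR17 is filled in all 3 comparisons, CHR23 in none, and CHR40 is the gene whose value for protoplasts against osmotic cells lies above 0.

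CHR24 and CHR18 are members outside these classes, and both fell in protoplasts. CHR24 (AT5G63950) also bears the names ERCC6 and RAD26 in RefSeq's table, those of an ATPase that in other organisms acts in the repair of transcribed genes. Its intensity was 449, 435 and 560 in intact cells, 275, 247 and 313 in osmotic cells and 104, 126 and 246 in protoplasts. The groups did not overlap, although the third protoplast array lay just under the lowest osmotic array. Protoplasts differed from intact cells by -1.59 ± 0.28 (SE, limma adjusted p = 0.00119), and this passed in all 21 alternatives, with values from -1.92 to -1.27. The difference between osmotic and intact cells, -0.75 ± 0.28, missed the threshold (limma adjusted p = 0.146) but was called without protoplast replicate 3 (limma adjusted p = 0.0314).

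Protoplasts differed from osmotic cells in CHR24 by -0.83 ± 0.28 (SE, limma adjusted p = 0.0395). This call ended without intact replicate 1 or 2 (limma adjusted p = 0.0572 and 0.0562), without osmotic replicate 1, 2 or 3 (limma adjusted p = 0.0848, 0.0635 and 0.107) and without protoplast replicate 1 or 2 (limma adjusted p = 0.14 and 0.124), and held without intact replicate 3 or protoplast replicate 3. After quantile normalization the difference was -0.51 and after median centring -0.53 (limma adjusted p = 0.161 and 0.143).

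CHR18 (AT1G48310) encodes a Snf2 family protein for which no more specific role is given here. Its intensity was 132, 125 and 153 in intact cells, 92.2, 92.9 and 73.9 in osmotic cells and 79.3, 42.5 and 101 in protoplasts. Both treated groups lay below all intact arrays and overlapped each other. Relative to intact cells the change was -0.81 ± 0.25 in protoplasts (SE, limma adjusted p = 0.0245) and -0.58 ± 0.25 in osmotic cells (limma adjusted p = 0.214), and protoplasts differed from osmotic cells by -0.23 ± 0.25 (limma adjusted p = 0.528). The call in protoplasts ended without intact replicate 1 (limma adjusted p = 0.0567), intact replicate 3 (limma adjusted p = 0.0771) or protoplast replicate 2, where the change was -0.53 (limma adjusted p = 0.069). It ended as well after quantile normalization, with -0.56 (limma adjusted p = 0.149). The difference between protoplasts and osmotic cells turned to 0.05 without protoplast replicate 2 and to 0.068 after median centring.

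Counted together, 6 of the 8 CHR genes fell in protoplasts against intact cells and none rose. Over all genes, 45.0% were called in that comparison, 29.2% lower and 15.8% higher (3902 and 2108 genes). With median centring this balance turned round, to 2898 genes lower and 3273 higher. The members' log2 changes ran from -1.96 to -0.28 with a median of -1.18, beside a median of -0.10 over all genes. Of the 6 falls, those of CHR42, CHR24, CHR17, CHR34 and chr31 were at least 2-fold, as were the called falls of 20.8% of all genes. At a pseudocount of 64, CHR42, CHR34 and chr31 had -0.93, -0.73 and -0.42, short of 2-fold. CHR17 and CHR24 had -1.40 and -1.34 there. With the mean of its probe sets chr31 had -0.26 and was not called, which left 5 of the 8 genes called. Without intact replicate 3 or without protoplast replicate 2, 3 of the 6 calls were left. In all 8 genes the protoplast arrays lay below the intact arrays with no overlap, which held for 33.0% of all genes, while 19.6% of all genes had protoplast arrays above the intact arrays.

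In osmotic against intact cells, CHR17 and CHR40 were called lower, 2 of 8, beside 7.34% of all genes called, 3.76% lower and 3.58% higher. No member was called with a fall of at least 2-fold, as 2.10% of all genes were. All 8 members had a log2 change below 0, from -0.83 to -0.12, with a median of -0.58 beside 0.01 over all genes. The arrays did not overlap in CHR17, CHR18, CHR24 and CHR40, 4 of 8, as in 16.2% of all genes, and no member had its osmotic arrays above the intact ones, as 14.7% of all genes did. Without intact replicate 2, intact replicate 3 or osmotic replicate 2, no member was called, and CHR40 alone lost its call in each of the other exclusions that lowered the count to 1.

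In protoplasts against osmotic cells, CHR17, CHR24 and CHR34 were called lower, 3 of 8, beside 39.0% of all genes called, 25.7% lower and 13.3% higher (3435 and 1772 genes). Median centring turned this balance to 2383 genes lower and 2712 higher, and centring on the hybridisation controls gave 4282 lower and 1288 higher. The fall of CHR34 was at least 2-fold, as were the called falls of 16.4% of all genes. At a pseudocount of 64 that fall was -0.61, short of 2-fold. The members' changes ran from -1.45 to 0.32, with a median of -0.52 beside -0.14 over all genes. The arrays did not overlap in CHR17, CHR24 and CHR34, which were lower, as in 30.7% of all genes, and in CHR40, which was higher, as in 16.9% of all genes. The count became 0 without osmotic replicate 1, and 1 without intact replicate 1 or 2 or without protoplast replicate 1 or 2. The 3 comparisons share arrays, so their values are not independent of each other.

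**Figure D3:**
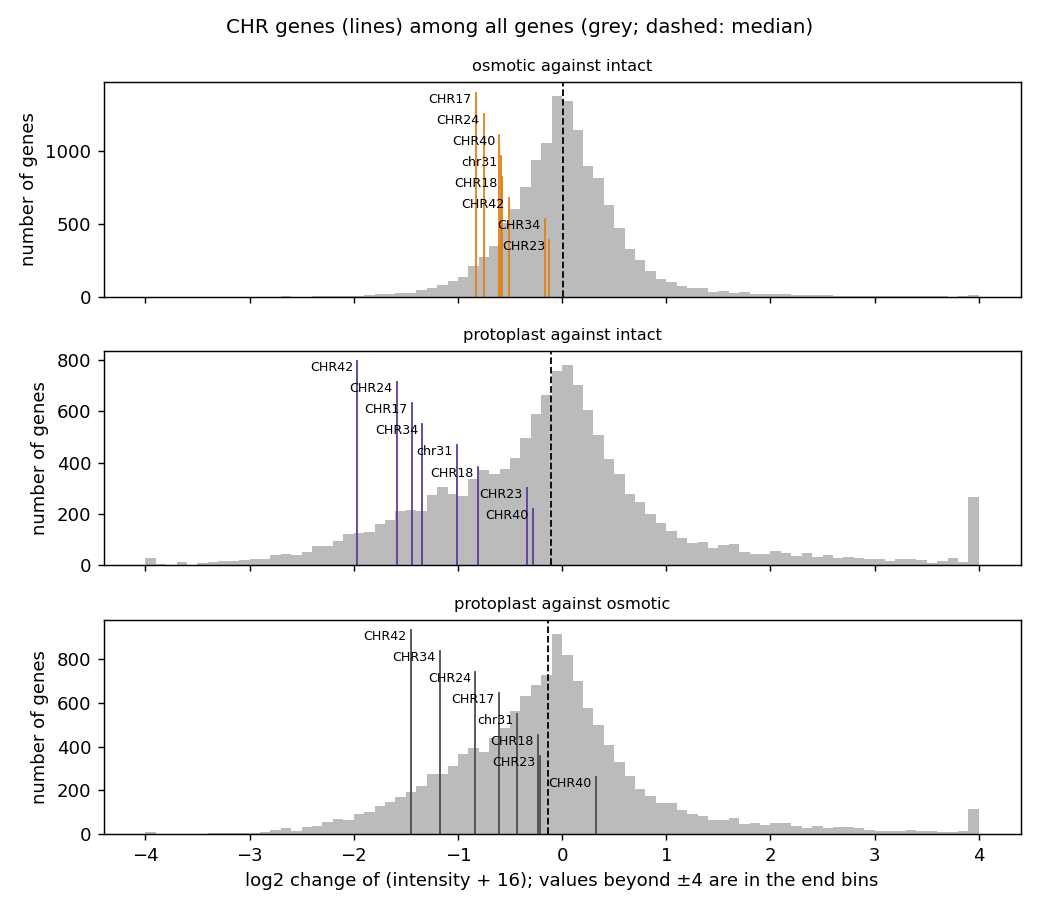
Distribution of the log2 change of intensity + 16 over all 13356 genes (grey bars, number of genes per bin on the vertical axis) in the 3 comparisons, with a coloured line at the value of each CHR gene and a dashed line at the median of all genes. Line heights only separate the labels, and the end bins hold all values beyond the axis ends. All 8 lines lie left of the dashed line in both comparisons with intact cells, and in protoplasts against osmotic cells CHR40 lies to its right.

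How arrays were scaled mattered for the smaller falls in protoplasts. The deposited scaling gave a median log2 change of -0.10 over all genes in protoplasts against intact cells, centring each array on its median gave 0.22, and centring on the hybridisation controls, bacterial and phage transcripts added in known amounts, gave -0.34. The number of CHR genes called lower was 6 as deposited, 5 after quantile normalization, 3 after median centring and 6 after centring on the controls. Over all 13356 genes the numbers called lower under the same 4 scalings were 3902, 3427, 2898 and 4480. CHR17, CHR24 and CHR42 were called under each of the 4 scalings, and CHR23 and CHR40 under none. With median centring CHR34 had -1.02 (limma adjusted p = 0.06), chr31 had -0.69 (limma adjusted p = 0.113) and CHR18 had -0.49 (limma adjusted p = 0.122).

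**Figure D4:**
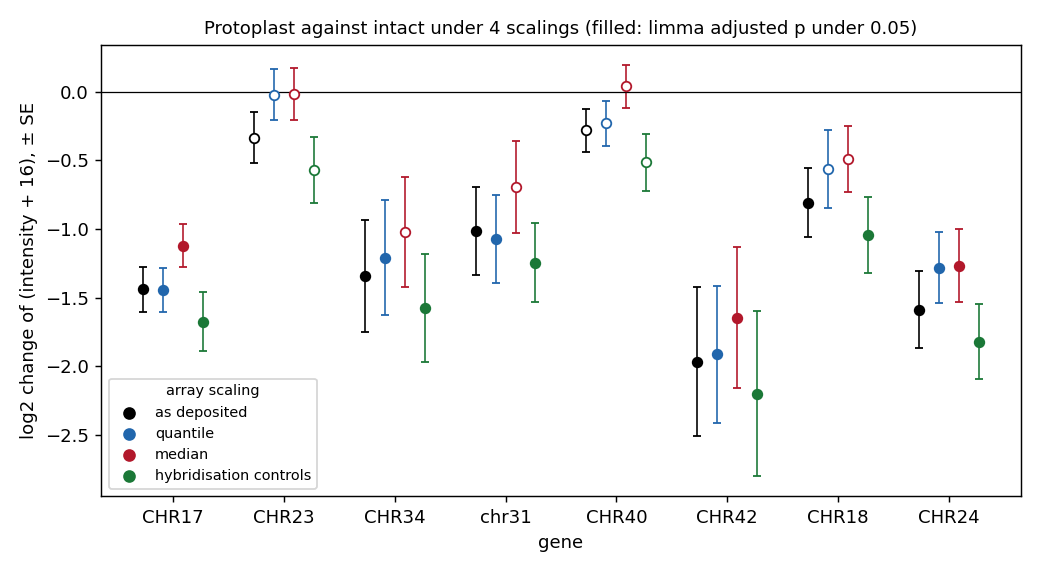
Log2 change of intensity + 16 with SE (vertical axis) in protoplasts against intact cells for each CHR gene (horizontal axis) under 4 scalings of the arrays, by colour. Filled points passed at a limma adjusted p under 0.05. CHR17, CHR24 and CHR42 are filled under all 4, and CHR40 has its single value above 0, at 0.038, after median centring.

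Among 3 further Snf2 family genes that the array annotation names otherwise, ATRX and ETL1 fell in protoplasts against intact cells, where 29.2% of all genes were called lower, and INO80 was not called. ETL1 (AT2G02090, CHR19) had intensities of 1652, 1575 and 1756 in intact cells, 884, 1237 and 937 in osmotic cells and 954, 991 and 554 in protoplasts. It differed by -1.03 ± 0.24 between protoplasts and intact cells (SE, limma adjusted p = 0.00657). ATRX (AT1G08600, CHR20), which in plants and animals helps deposit the histone variant H3.3, differed by -0.72 ± 0.21 (limma adjusted p = 0.0174) from intact cells and by -0.73 ± 0.21 (limma adjusted p = 0.019) from osmotic cells. INO80 (AT3G57300), the ATPase of the INO80 complex, had a mean of 443 ± 68.1 in intact and 499 ± 45.3 in protoplasts (SD, n = 3) and a change of 0.18 ± 0.18 (limma adjusted p = 0.496), which turned to -0.058 after centring on the hybridisation controls. None of the 3 was called in mannitol. Their median log2 change was -0.72 in protoplasts against intact cells and -0.32 against osmotic cells.

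Without intact replicate 2, intact replicate 3 or protoplast replicate 1, ATRX differed from intact cells by -0.59, -0.63 and -0.68 and missed the threshold (limma adjusted p = 0.0708, 0.0611 and 0.0559). Without osmotic replicate 1, protoplast replicate 1 or protoplast replicate 2, it differed from osmotic cells by -0.67, -0.69 and -0.73 and missed it too (limma adjusted p = 0.0648, 0.0619 and 0.0522). After median centring it had -0.40 against intact and -0.43 against osmotic cells and was called in neither (limma adjusted p = 0.137 and 0.129), and ETL1 had limma adjusted p = 0.0518 against intact cells. After quantile normalization ATRX had -0.38 and -0.40 (limma adjusted p = 0.179 and 0.168).

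Of 3 measured SWI/SNF subunit genes, partners of ATPases such as CHR23, 2 fell in protoplasts and none was called in mannitol. Of all genes, 29.2% were called lower in protoplasts against intact cells, 25.7% against osmotic cells and 3.76% in mannitol. BSH (AT3G17590), the plant SNF5 subunit, had a mean of 620.1 ± 108 in intact cells, 665 ± 93.9 in osmotic cells and 293 ± 37.0 in protoplasts (SD, n = 3). It differed by -1.04 ± 0.20 from intact cells (limma adjusted p = 0.00174) and by -1.14 ± 0.20 from osmotic cells (limma adjusted p = 0.00138), and passed in all 21 alternatives of each comparison. CHC1 (AT5G14170), an SWP73-type subunit, differed by -0.56 ± 0.17 from intact cells (limma adjusted p = 0.0212) and by -0.56 ± 0.17 from osmotic cells (limma adjusted p = 0.0231). SWI3A was not called. The median of the 3 subunit genes was -0.56 in protoplasts against intact cells. The CHC1 calls ended after median centring, at -0.24 and -0.26 (limma adjusted p = 0.242 and 0.219), after quantile normalization, at -0.35 and -0.34 (limma adjusted p = 0.107 and 0.124), against intact cells without intact replicate 2, protoplast replicate 1 or protoplast replicate 2 (limma adjusted p = 0.0671, 0.0638 and 0.0723), and against osmotic cells without osmotic replicate 1, protoplast replicate 1 or protoplast replicate 2 (limma adjusted p = 0.0863, 0.0708 and 0.0788).

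Few genes of the neighbouring pathways were measured, that is, had a named probe set of their own. The annotation names no gene for 8730 of 22746 probe sets, so a gene not measured here may still be on the array. Of all genes, 45.0% were called in protoplasts against intact cells, 29.2% lower and 15.8% higher. Against osmotic cells 39.0% were called, and in mannitol 7.34%. The 39 symbols written for DNA methylation formed a list broader than the RNA-directed pathway served by the CLASSY genes. Of these, NRPD7 and DME were measured and neither was called in any comparison. SWC2, the measured gene of 17 symbols for the SWR1 and INO80 complexes, was not called either, and none of 11 symbols for ISWI partners of CHR17 was measured. Of 25 symbols for DNA repair, RAD51B and RAD4 were measured. RAD4 (AT5G16630), of the damage recognition step of nucleotide excision repair, rose in protoplasts by 0.56 ± 0.18 against intact cells (SE, limma adjusted p = 0.0298). That call ended without intact replicate 1 or 2 (limma adjusted p = 0.0994 and 0.0985), without protoplast replicate 1 or 2 (limma adjusted p = 0.0793 and 0.101) and after centring on the hybridisation controls, at 0.32 (limma adjusted p = 0.234).

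**Figure D5:**
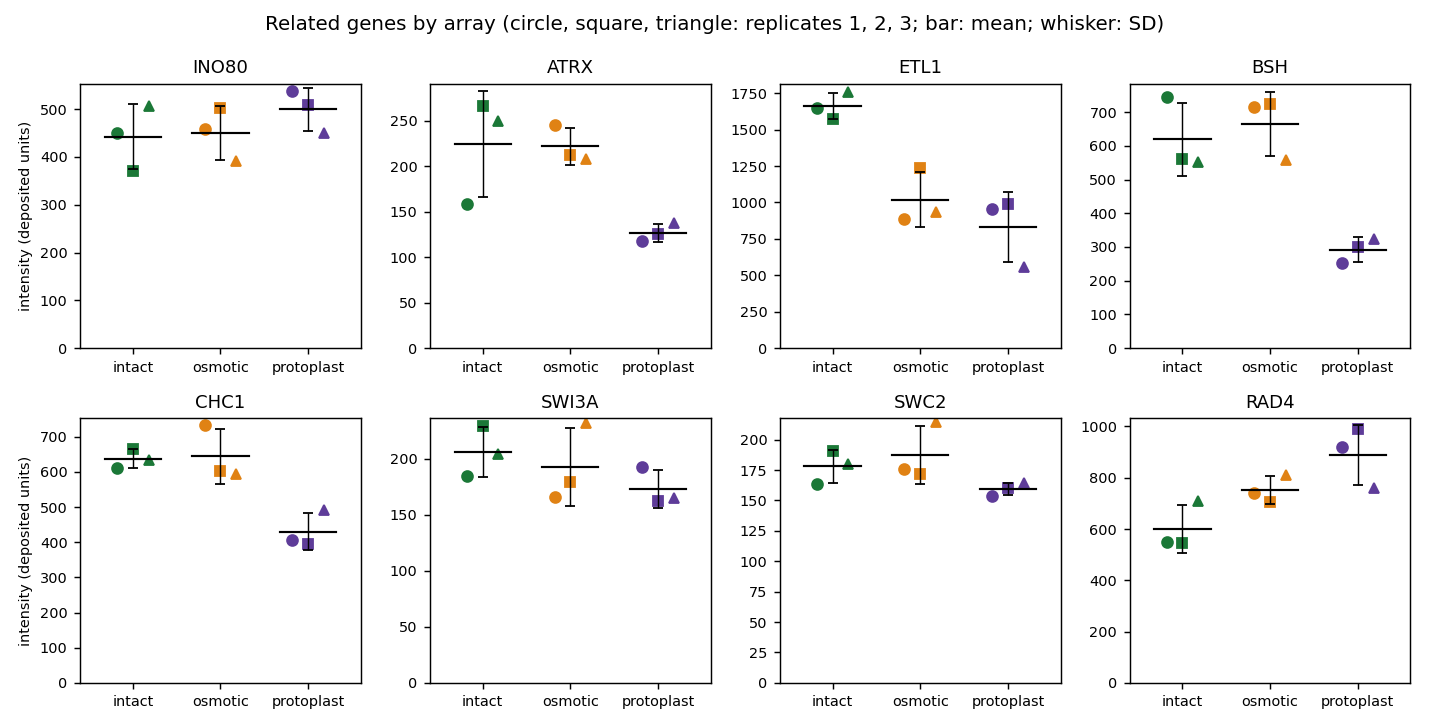
Intensity (vertical axis, deposited units, from 0) of 8 related genes in each array of intact cells, osmotic cells and protoplasts. Circles, squares and triangles are replicates 1, 2 and 3, bars are means and whiskers SD (n = 3). BSH, CHC1 and ATRX are lower in all protoplast arrays than in all others, ETL1 is lower in both treated groups than in intact cells, and INO80 overlaps between all groups. Of all genes, 33.0% had protoplast arrays below intact arrays without overlap and 30.7% below osmotic arrays. Osmotic arrays lay below intact arrays in 16.2%.

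The course of CHR17 over the 9 arrays was most like that of TCP15, NET1A and AAPT2 among 1545 other genes with a symbol that is not a locus code. Pearson's r of log2 values was 0.99 with TCP15, a transcription factor gene of the TCP family, 0.99 with NET1A, an actin-binding protein gene, and 0.98 with AAPT2, a phospholipid synthesis gene. The genes with a course most like that of CHR40 were CSLA03, of the cellulose synthase-like A family, with r of 0.92, NUP155, a nuclear pore gene, with 0.91, and TERT, the telomerase reverse transcriptase gene, with 0.91. TERT had mean intensities of 104 in intact cells, 33.6 in osmotic cells and 56.2 in protoplasts. Among the CHR genes themselves, r over the arrays ran from 0.19 for CHR34 and CHR40 to 0.90 for CHR17 and CHR24. These correlations describe 9 arrays that fall into 3 groups, so any genes whose group means differ alike share them.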

How the data were processed

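Intensities of 9 Affymetrix ATH1 arrays were used as deposited, on a linear scale, 1 value per probe set and array; their trimmed mean (leaving out 2% at each end) was close to 500 on every array, while other quantiles differed. The method of probe summary was not given in the sources used here. No detection calls were used, so dim probe sets cannot be told from background. Leaving out 64 controls, the array holds 22746 probe sets, and its annotation, which can be old, names 1 gene for 13513, several for 503 and none for 8730; the brightest probe set per gene gave 13356 genes. Loci came from RefSeq's gene table (TAIR10.1), matched for 13286 genes.

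The scale was log2(intensity + 16), on which fold changes of dim genes come out too small. A single linear model of the groups was fitted to all arrays in limma 3.58.1 (R 4.3.3) with empirical Bayes variances. p-values were adjusted by Benjamini-Hochberg over all genes per comparison, and calls were made at an adjusted p under 0.05. The model was tested on simulated data. Python 3.11.15, pandas 2.3.3 and matplotlib 3.10.9 were used for counts and figures.

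Members and lists were chosen with earlier results of these data known. All CHR genes were named, other Snf2 genes when called, and up to 4 genes of each partner list; likeness to CHR17, CHR40 and the member with the lowest adjusted p in protoplasts against intact cells, again CHR17, went by the 3 highest Pearson's r. INO80 was named after its values were seen. The planned motif search in promoters was not run. Replicate numbers are shared between groups. Deviations of same-numbered arrays correlated by 0.101, 0.177 and 0.31 in osmotic and intact cells. In protoplasts and osmotic cells they correlated by 0.19, 0.122 and 0.323, and in protoplasts and intact cells by 0.107, 0.022 and 0.146. Replicates 1 and 2 crossed between groups gave 0.13 and 0.152, 0.148 and 0.148, and 0.044 and 0.091, in the same order. Replicate 3 crossed with replicate 1 or 2 gave values from -0.247 to -0.05. These values set replicate 3 apart and do not show that the replicate number pairs arrays. The block is given beside results of osmotic against intact cells and protoplasts against osmotic cells where it changed a call. Alternatives were this block, fits to the groups compared, a variance prior with trend and robust estimation, array weights and 3 scalings. Others were a filter on the dimmest 40% of genes, averaging the probe sets of a gene, pseudocounts of 1 and 64 and stricter thresholds. Each array was also left out, and replicates 1 and 2 were used alone.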

Additional observations from a re-analysis of the deposited data

How the results depend on the processing

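Of 495 recomputed log2 changes of CHR genes, 413 kept their direction and their side of the threshold, 62 lost a call, 12 gained one and 8 changed sign. The 413 include uncalled changes that stayed uncalled. Some alternatives repeat the log2 change and can move only its p-value. These are the block, fits to the groups compared, the variance prior, the filter on dim genes and leaving out an array of the group not compared. Averaging probe sets changes the value of chr31 alone. The sign changes were CHR34 at 0.01 without intact replicate 3 (range over single arrays left out -0.277 to 0.01) and CHR42 at 0.20 without osmotic replicate 3 (-0.934 to 0.20) in mannitol, CHR40 at 0.038 with median centring in protoplasts against intact cells, and, in protoplasts against osmotic cells, CHR18 at 0.068 with median centring and 0.05 without protoplast replicate 2 (-0.449 to 0.05), CHR23 at 0.089 with quantile normalization and 0.088 with median centring, and chr31 at 0.064 with the mean of probe sets. INO80 had -0.058 in protoplasts against intact cells after centring on the hybridisation controls. None of these 9 values was called as deposited. The 2 CHR genes called in mannitol became 1 with the replicate block, a variance prior with trend and robust estimation, median centring and a pseudocount of 1. The count was also 1 without the dimmest 40% of genes, which left 5 members to test. It became 0 after centring on the hybridisation controls, at an adjusted p under 0.01 and with at least a 2-fold change. The 6 called in protoplasts against intact cells became 3 with median centring and 2 at an adjusted p under 0.01. The 3 called in protoplasts against osmotic cells became 1 with a fit to these groups only, quantile normalization, median centring (CHR40, higher), a pseudocount of 1 and at least a 2-fold change, and 0 at an adjusted p under 0.01. Leaving out 1 array gave 0 to 3 in mannitol, 3 to 6 in protoplasts against intact cells and 0 to 3 in protoplasts against osmotic cells. Replicates 1 and 2 alone gave 2, 5 and 4. The replicate number as a block gave 1, 6 and 4, and in protoplasts against intact cells it changed no call of a CHR gene. The cause of these differences was not tested. Dim signal limits CHR40, CHR42, chr31 and CHR34, whose fold changes depend on the pseudocount. The size for CHR18 moved as well. In protoplasts against intact cells it was -0.95 at a pseudocount of 1 and -0.56 at 64, called at both.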
